A study of Homo sapiens with 18 samples.

Results

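The genes described here are 42 members of the machinery that makes ribosomes, namely RNA polymerase I with its initiation factors and the nucleolar proteins that modify, cut and assemble ribosomal RNA. They were chosen by name from knowledge of the pathway, and a member was any measuring spot whose gene name on the array was in the list. All 42 were found among the 36204 gene names of the array, with 63 probes, 28 members having 1 probe and 14 having several. Expression was profiled on 18 one-colour Agilent arrays, 3 for each of 6 groups, in HT29, a human colorectal adenocarcinoma line, and in HTOXAR3. The latter is a subline resistant to OXA (oxaliplatin, a platinum drug), derived by keeping HT29 cells in the drug while its dose was raised. Each line was measured untreated (without drug), after OXA and after OXA plus Curcumin, a polyphenol of turmeric. Treated cells were exposed for 24 h, OXA being 10 µM in HT29 and 30 µM in HTOXAR3 and Curcumin 10 µM in both, so that every comparison of the lines after treatment is also a comparison of 2 OXA doses. HTOXAR3 is 1 subline of 1 parental line, and arrays of Curcumin alone were not analysed here.

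Ribosomal RNA is transcribed in the nucleolus by RNA polymerase I, which is brought to the ribosomal DNA by UBTF, the selectivity factor SL1 (TBP with the TAF1 proteins) and RRN3. Small nucleolar ribonucleoproteins (snoRNPs) then modify the precursor, and processing factors cut it and assemble the small and the large ribosomal subunits. Oxaliplatin is known for acting on this process, by nucleolar stress, in which rRNA synthesis stops and free ribosomal proteins bind MDM2, and MYC is the best known transcriptional activator of the genes of the pathway.

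All 42 members were well above background on all 18 arrays, and none of their spots was saturated or carried an outlier flag. Over the whole array, the share of measuring spots well above background ran from 52.4% to 63.6%, with replicate 2 of untreated HTOXAR3 the lowest, and arrays of 1 group correlated at 0.986 or more. Of 10 colonic epithelial markers, 9 were well above background on every array, and the exception was *CDX2*, an intestinal transcription factor, which was well above background on 10 arrays and on none of those of treated HTOXAR3. Among 7 markers of other cell types, *COL3A1* was not well above background on any array, while *PTPRC* and *CDH5* were on all 18, with group means on the log2 scale of 6.14 to 7.12. Values below are log2 intensities after background correction and quantile normalization, so they are relative to the rest of each array. Since cells were measured in bulk, fewer cells expressing a gene and less of its RNA per cell cannot be told apart. Differences are given in log2 units with their standard error (SE, n = 3 arrays per group) from a limma model across all gene names. A gene was called when its Benjamini-Yekutieli adjusted p was below 0.05 and its fold change above 1.2.

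Before any drug, the lines differed in single genes of the pathway and not in one direction. In untreated HTOXAR3, 5 members were higher and 4 lower than in untreated HT29, that is 11.9% and 9.52% of the 42, beside 6.28% higher and 5.28% lower over all gene names. Among the 17463 names well above background on every array, as all members are, the shares were 11.5% and 10%, so the members were called about as often as other measured genes. The higher ones were *POLR1C*, *NOP56*, *RRP9*, *GAR1* and *BYSL*, and the lower ones *GNL3*, *NOP58*, *NAT10* and *WDR12*. The median difference of the members was 0.031 log2 units, with 25 above and 17 below 0, and that of all names was -0.028 (0.033 and 0.083 for the members within the slides that hold both groups). With 1 array left out at a time, the members' median ran from 0.006 to 0.056. The largest fall was that of *WDR12*, which forms the PeBoW complex of the large subunit with *PES1* and *BOP1*. Its log2 intensity was 12.86, 12.88 and 12.80 in HT29 and 12.13, 12.14 and 12.21 in HTOXAR3, without overlap, a difference of -0.69 (SE 0.05, adjusted p = 3.67e-06). Its partners did not pass the test (*PES1* 0.20, *BOP1* -0.19). *GNL3*, or nucleostemin, a nucleolar GTP-binding protein, measured 12.78, 12.84 and 12.81 in HT29 and 12.29, 12.30 and 12.18 in HTOXAR3 (-0.55, SE 0.07, adjusted p = 0.00042).

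The largest rises were those of *BYSL* and *POLR1C*. *BYSL*, needed for maturation of the small subunit, measured 12.51, 12.52 and 12.48 in HT29 and 12.94, 13.05 and 13.01 in HTOXAR3 (0.50, SE 0.06, adjusted p = 0.000323). *POLR1C*, a subunit shared by RNA polymerases I and III, measured 12.57, 12.46 and 12.50 against 13.04, 12.98 and 12.97 (0.48, SE 0.05, adjusted p = 7.96e-05). Another probe of *POLR1C* gave 0.69 and a dim one -0.03. In each of these 4 genes the 3 arrays of one line lay apart from the 3 of the other. Without replicate 2 of untreated HTOXAR3, 5 of the 9 members remained called. Of the 13 alternatives, 6 ended the call of *NAT10*, each with 1 array left out, 6 that of *NOP56*, among them the processed intensity and the mean of the probes, 5 that of *RRP9* and 2 that of *GAR1*.

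After OXA alone, members of nearly every role fell in HT29. Of the 42 members, 15 fell (35.7%) and 1 rose (2.38%), while over all gene names 7.62% fell and 8.34% rose. Among the names well above background on every array, 15.1% fell. The members' median was -0.217 log2 units against -0.008 for all names, and 31 of 42 lay below 0. It was -0.202, -0.187 and -0.211 within slides 1, 2 and 3, and -0.293 with the scanner's processed intensity in place of quantile normalization, where all names lay at -0.101. Falls came from every role except the box H/ACA snoRNP proteins. They comprised 2 of 5 polymerase subunits (*POLR1C*, *POLR1D*), 2 of 6 initiation factors (*UBTF*, *TAF1D*), 2 of 7 nucleolar scaffold and regulatory proteins (*MYBBP1A*, *DDX21*), 2 of 4 box C/D proteins (*NOP56*, *NOP58*), 3 of 9 small subunit factors (*NOP14*, *UTP15*, *NAT10*) and 4 of 7 large subunit factors (*BOP1*, *WDR12*, *NOP16*, *PPAN*). For *POLR1C* (-0.27) and *POLR1D* (-0.54) a dimmer probe measured 0.01 and 0.00, and neither was called with the mean of the probes. The fall of *NOP14* was not called under 6 of 13 alternatives, that of *WDR12* under 4, that of *POLR1C* under 3 and that of *PPAN* under 1, mostly with an array left out. The catalytic subunits of the polymerase were not among them, *POLR1A* differing by -0.04 and *POLR1B* by 0.08.

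*BOP1*, the scaffold of the PeBoW complex that processes the rRNA of the large subunit, stood far apart from every other member. Its probe, at chr8:145486433-145486576 on GRCh37 and the only one for the gene, read 13.57, 13.59 and 13.41 in untreated HT29 and 10.09, 10.11 and 9.98 after OXA. It fell by 3.46 log2 units, or 11-fold (SE 0.07, adjusted p = 1.47e-11). In this comparison it ranked 22 from the lowest of the 36204 names, and the next member, *UBTF*, fell by 0.97. Genes beside *BOP1* on the chromosome, chosen after its values were seen, gave smaller values of both signs. *HSF1* rose by 0.32 and *MROH1* fell by 0.31 (adjusted p = 0.0279), both being called, while *DGAT1* measured -0.12 and was not called.

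*UBTF* encodes UBF, the architectural factor that keeps ribosomal DNA open and recruits the polymerase. It measured 9.83, 9.83 and 9.91 in untreated HT29 and 8.90, 8.95 and 8.82 after OXA (-0.97, SE 0.08, adjusted p = 5.81e-06), every treated array being below every untreated one. *TAF1D*, a subunit of SL1, fell by 0.79 and *NOP16*, a large subunit factor, by 0.66. The subunits of SL1 did not move together: *TAF1C* was the 1 member that rose, from 12.99, 12.90 and 12.76 to 13.11, 13.29 and 13.32 (0.36, SE 0.08, adjusted p = 0.0331), and *TAF1A* and *TAF1B*, at -0.06 and 0.20, did not pass the test. The rise of *TAF1C* was not called under 7 of 13 alternatives, namely with the processed intensity, with the slide or the replicate number as a block (adjusted p = 0.0617 for the latter) and without replicate 2 or 3 of either group (adjusted p from 0.107 to 0.185).

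**Figure D1:**
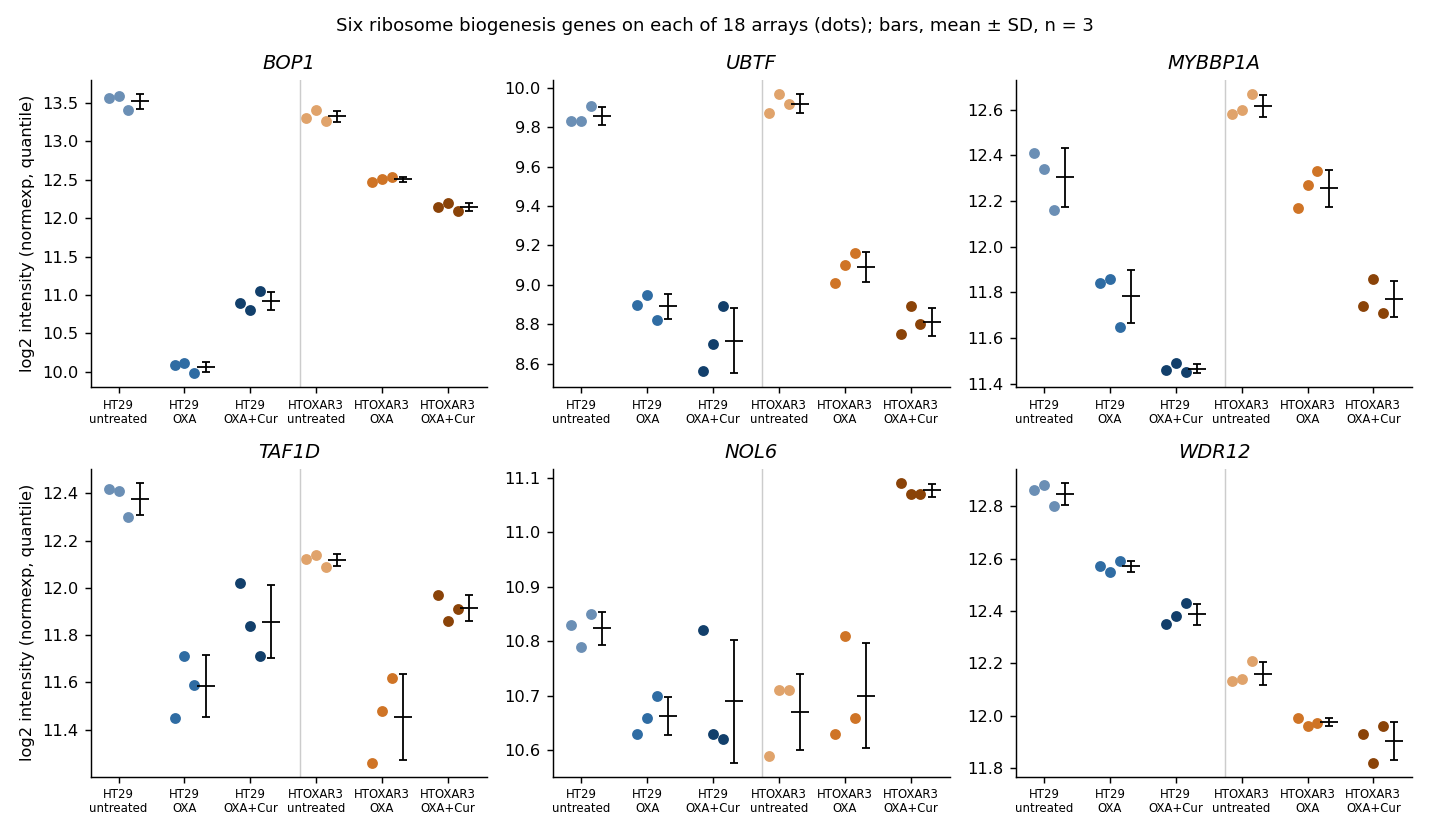
Log2 intensity of 6 members on each of the 18 arrays (dots) by cell line and treatment, with the mean and SD of 3 arrays beside them; each panel has its own vertical axis, which does not start at 0. On OXA alone *BOP1* lay between 9.98 and 10.11 in the parental line and between 12.47 and 12.54 in HTOXAR3, while the untreated arrays of both lay between 13.27 and 13.59.

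In HTOXAR3, given the higher dose of OXA, the same comparison called fewer members. There were 10 falls (23.8%) and 1 rise (2.38%), beside 4.95% lower and 5.33% higher over all names and 9.82% lower among the names well above background on every array. The median was -0.084 against 0.008 for all names, though with the processed intensity it was -0.086 against -0.192 for all names, that is no longer the lower, and -0.013 for the names well above background. There were 25 of 42 members below 0, and within slides 2 and 3 the median was -0.043 and -0.078. Those that fell were *POLR1C*, *POLR1D*, *TAF1D*, *UBTF*, *MYBBP1A*, *NOP56*, *NHP2*, *NAT10*, *BOP1* and *NOP16*. The calls of *POLR1C* and *POLR1D* were again lost with the mean of the probes, the dimmer probe of *POLR1D* measuring 0.10 where the brighter measured -0.41. *MYBBP1A* was not called under 9 of the 13 alternatives, both blocks and each left-out array among them, and *NAT10* under 6 of 13. *NHP2* lost its call under 2, each with an array left out. *UBTF* and *BOP1* fell most and almost equally. *UBTF* went from 9.87, 9.97 and 9.92 to 9.01, 9.10 and 9.16 (-0.82, SE 0.08, adjusted p = 6.3e-05). *BOP1* went from 13.31, 13.41 and 13.27 to 12.47, 12.51 and 12.54 (-0.82, SE 0.07, adjusted p = 3.26e-05). The groups did not overlap in either gene. *POLR1E*, a subunit specific to RNA polymerase I, was the member that rose, from 10.48, 10.52 and 10.51 to 10.83, 10.87 and 10.77 (0.32, SE 0.05, adjusted p = 0.00581). In HT29 its value was 0.20 and was not called.

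**Figure D2:**
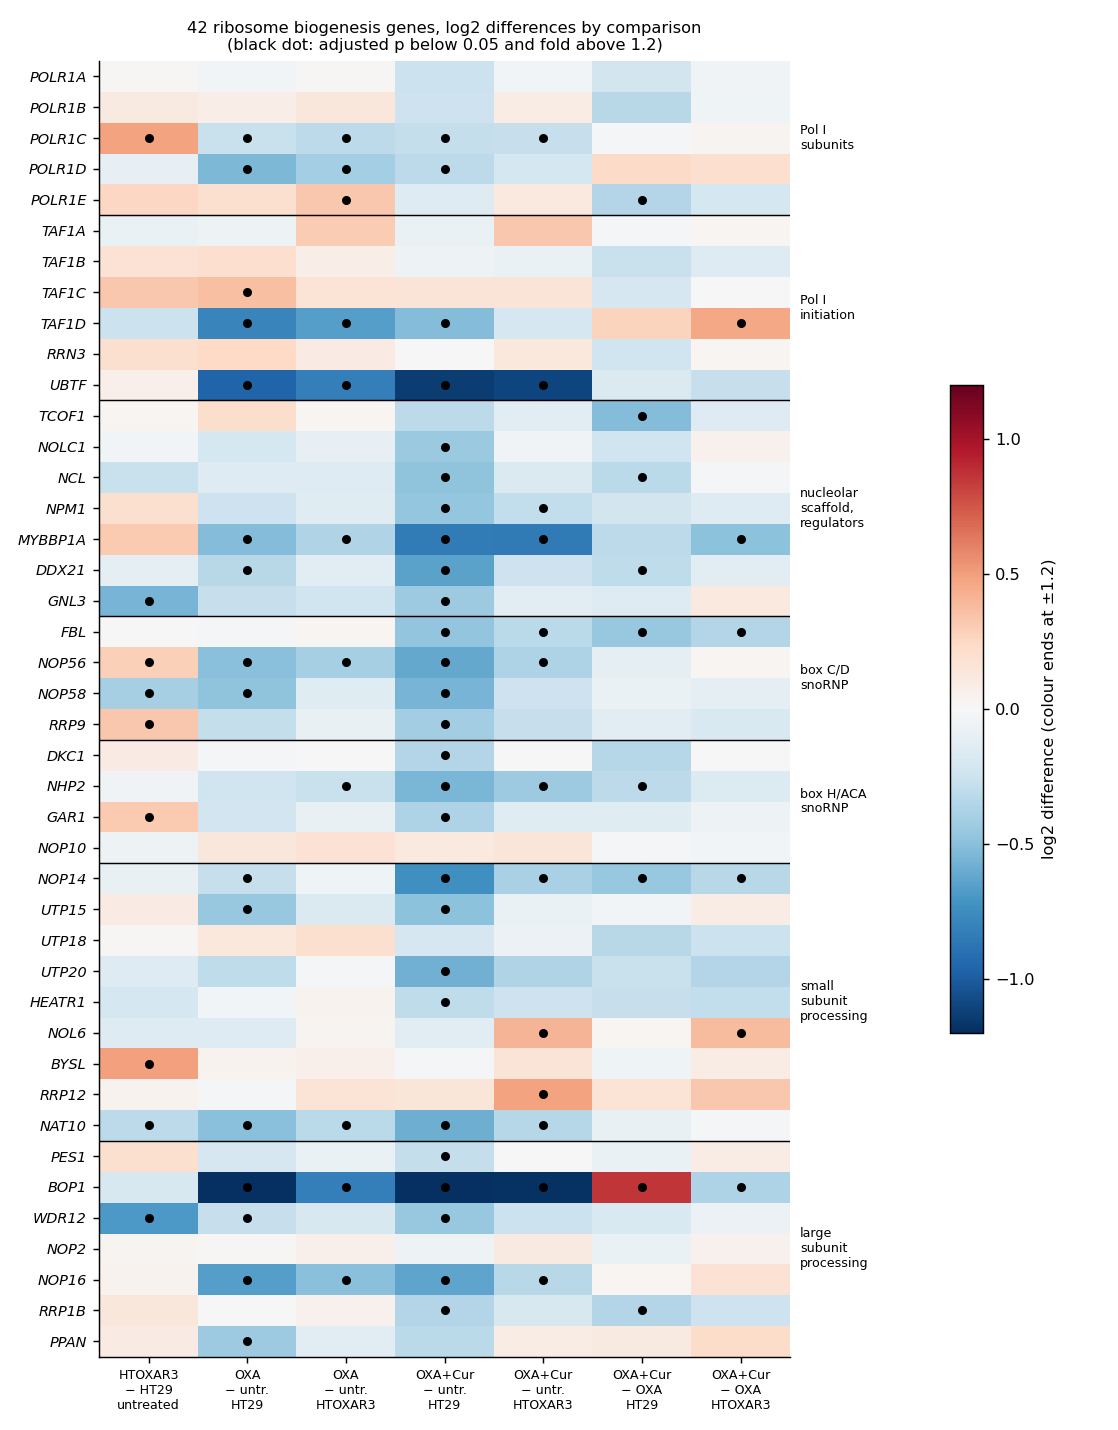
Log2 differences of the 42 members (lines, grouped by role) in 7 comparisons (columns), blue for lower and red for higher, with a black dot where the adjusted p was below 0.05 and the fold above 1.2; the colour ends at 1.2 log2 units in either direction. The column of OXA plus Curcumin in HT29 holds the most dots (27), and *UBTF* and *BOP1* are the darkest blue.

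The responses of the lines, which share no array, ran alongside each other apart from *BOP1*. Across the 42 members the OXA responses correlated with Pearson's r = 0.772 (Spearman's rho = 0.889), and with r = 0.899 when *BOP1* was left out. Over names well above background on every array r was 0.808. These are descriptions across genes measured on the same 12 arrays, and genes are not independent replicates. There were 9 members that fell in both lines, namely 60% of the 15 in HT29 and 90% of the 10 in HTOXAR3, where the same shares over names well above background were 51.3% and 78.9%. The one found in HTOXAR3 and not in HT29 was *NHP2* (-0.24 in HT29, -0.27 in HTOXAR3), whose call was lost under 2 of 13 alternatives. The value in HT29 was the lower of the pair for 36 of 42 members. When the difference between the lines was tested, however, only *BOP1* was called, 1 of 42 or 2.38%, beside 1.01% of all names, well above background or not. Its response was 2.64 log2 units less negative in HTOXAR3 (SE 0.10, adjusted p = 8.25e-08), and it ranked 10 from the highest of all names. At an unadjusted p below 0.05 there were 8 members (19%), all with the higher value in HTOXAR3, while among the names well above background 10.1% passed with the higher value in HTOXAR3 and 21.7% in either direction. The median line difference of the members was 0.109 and that of all names 0.013.

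**Figure D3:**
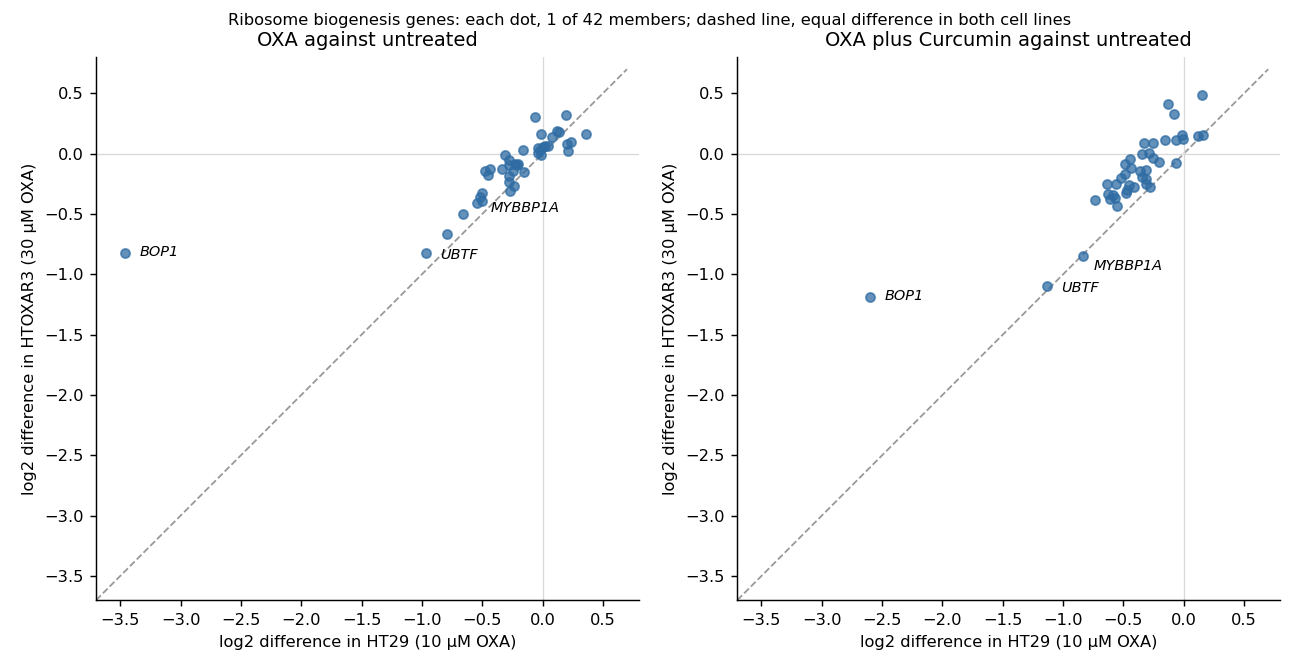
Log2 difference from untreated cells in HT29 (horizontal) and in HTOXAR3 (vertical) for OXA (left) and OXA plus Curcumin (right), each dot being 1 of 42 members and the dashed line marking equal differences. Most dots lie above the line (36 of 42 for OXA and 39 of 42 for the combination), and *BOP1* lies far above it in both panels.

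After OXA plus Curcumin, most of the members fell in HT29. Of the 42 members 27 fell (64.3%) and 0 rose, beside 9.01% lower and 9.57% higher over all names, and 18% lower among the names well above background on every array. The median was -0.358 against -0.032, and 39 members lay below 0. With Benjamini-Hochberg adjustment 29 fell and 0 rose, and 0 were higher at an unadjusted p below 0.05. The shares of other names at these 2 looser thresholds were not taken. Within slides 2 and 3 the median was -0.386 and -0.399, and with the processed intensity it was -0.478 against -0.154 for all names. All 4 box C/D proteins fell, with values from -0.61 (*NOP56*) to -0.42 (*RRP9*), *FBL*, the rRNA methyltransferase of the complex, being at -0.48. Of the box H/ACA proteins 3 of 4 fell (*NHP2* -0.55, *GAR1* -0.37 and the pseudouridine synthase *DKC1* -0.35), while *NOP10* measured 0.11 and was not called. Of the nucleolar scaffold and regulatory proteins 6 of 7 fell, among them *MYBBP1A* (-0.84), the RNA helicase *DDX21* (-0.64), nucleolin (*NCL*, -0.48) and nucleophosmin (*NPM1*, -0.47). Of the small subunit factors 5 of 9 fell, led by *NOP14* (-0.73), and of the large subunit factors 5 of 7. The polymerase was the least covered, with 2 of 5 subunits (*POLR1C* -0.28, *POLR1D* -0.31) and 2 of 6 initiation factors (*UBTF*, *TAF1D*). The dimmer probe of *DKC1* gave 0.06. Of the 13 alternatives, 8 ended the call of *HEATR1*, a small subunit factor, 7 that of *DKC1*, 6 that of *PES1*, 3 that of *TAF1D* and 2 that of *POLR1C*.

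*BOP1* and *UBTF* again fell most. *BOP1* read 10.90, 10.81 and 11.05 after the combination, against 13.57, 13.59 and 13.41 untreated (-2.60, SE 0.07, adjusted p = 3.16e-10). *UBTF* read 8.56, 8.70 and 8.89 against 9.83, 9.83 and 9.91 (-1.14, SE 0.08, adjusted p = 9.91e-07). In both genes all treated arrays lay below all untreated ones.

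In HTOXAR3 the combination lowered 11 members (26.2%) and raised 2 (4.76%), beside 8.66% and 8.83% over all names, and 16.9% lower among the names well above background on every array. The median was -0.158 against -0.009 for all names, but with the processed intensity it was -0.142 against -0.184 for all names and -0.034 for those well above background, so that it was below the latter alone. Within slides 2 and 3 it was -0.14 and -0.183, and 30 members lay below 0. *BOP1* read 12.14, 12.20 and 12.09 against 13.31, 13.41 and 13.27 untreated (-1.19, SE 0.07, adjusted p = 4.01e-07). *UBTF* read 8.75, 8.89 and 8.80 against 9.87, 9.97 and 9.92 (-1.10, SE 0.08, adjusted p = 1.67e-06). Next came *MYBBP1A*, a nucleolar binding partner of MYB, at -0.85, and the other 8, with values from -0.43 to -0.28, were *NHP2*, *NOP14*, *NOP56*, *NAT10*, *NOP16*, *FBL*, *NPM1* and *POLR1C*. Of the 13 alternatives, 4 ended the call of *POLR1C* and 1, the mean of the probes, that of *NOP14*.

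The 2 rises were both of small subunit factors. *RRP12* went from 12.04, 12.21 and 12.03 to 12.57, 12.59 and 12.57 (0.48, SE 0.09, adjusted p = 0.00582). *NOL6* went from 10.59, 10.71 and 10.71 to 11.09, 11.07 and 11.07 (0.41, SE 0.07, adjusted p = 0.00276). The groups did not overlap in either gene. A second, dimmer probe of *NOL6* gave -0.01, and with the mean of both probes the rise was 0.20 and was not called (adjusted p = 0.147).

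All 11 members that fell in HTOXAR3 had fallen in HT29 too, which is 40.7% of the 27 there. Over names well above background 73% of those that fell in HTOXAR3 had fallen in HT29, and these were 68.6% of the falls in HT29. The combination responses correlated across members with r = 0.857 (rho = 0.877), and 0.846 over names well above background on every array. The value in HT29 was the lower of the pair for 39 of 42 members. In the test of the difference between the lines, *BOP1* was again the only member called, 2.38% beside 0.854% of all names, well above background or not. The difference was 1.41 log2 units (SE 0.10, adjusted p = 0.000104). The median line difference was 0.222 for the members and 0.019 for all names. Unadjusted p was below 0.05 in 24 members (57.1%), all with the higher value in HTOXAR3, while among the names well above background 10.4% passed with the higher value in HTOXAR3 and 22.6% in either direction. With Benjamini-Hochberg adjustment 6 members were called, 14.3% beside 6.36% of such names (*BOP1*, *NOLC1*, *DDX21*, *NOP14*, *UTP15* and *NOL6*).

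**Figure D4:**
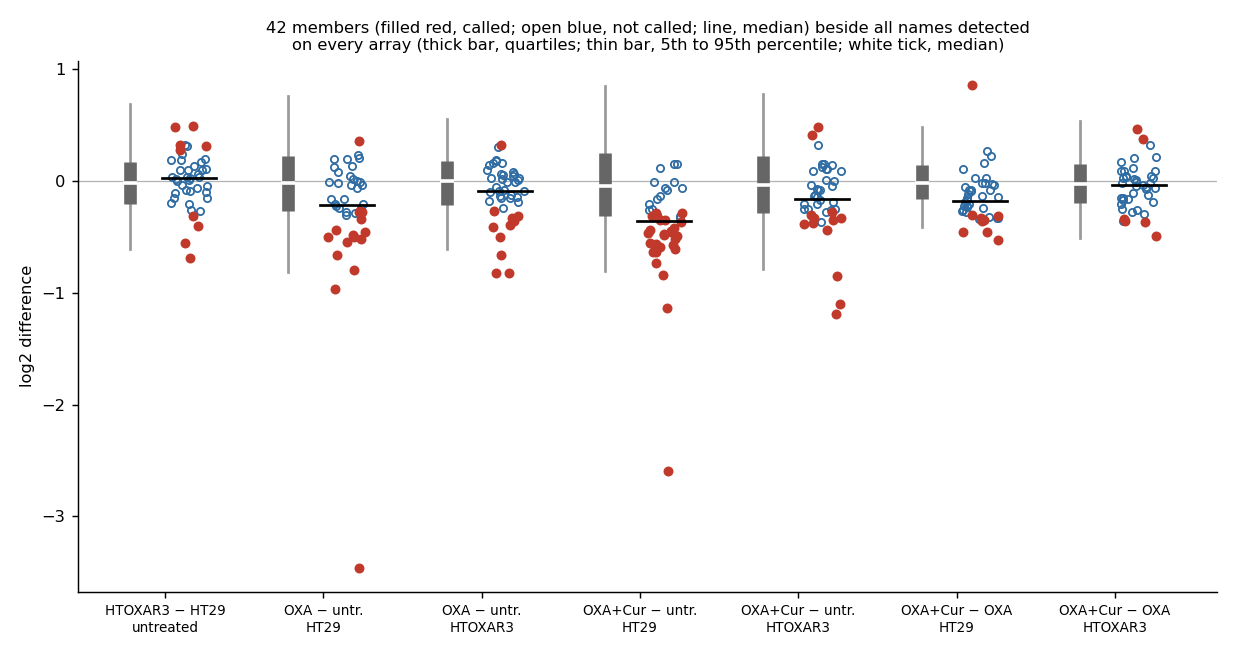
Log2 difference of the 42 members (dots, filled where called, black line at their median) in 7 comparisons, beside the quartiles (thick bar) and the 5th to 95th percentile (thin bar) of all names well above background on every array. The members' median is lowest, at -0.358, for OXA plus Curcumin in HT29, and near 0 for the untreated lines (0.031).

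Side by side, the treatments against untreated cells called 7 members lower in all 4 comparisons, namely *POLR1C*, *UBTF*, *MYBBP1A*, *NOP56*, *NAT10*, *BOP1* and *NOP16*. That is 16.7% of the members, beside 5.88% of the names well above background on every array and 2.93% of all names. Within a line these comparisons share the untreated arrays, so a member called in both is not 2 independent results. *UBTF*, *NOP56*, *BOP1* and *NOP16* were called in all 4 under each of the 13 alternatives. Of these, Benjamini-Hochberg adjustment, being the looser, could not end a call. The mean of the probes left *UBTF*, *BOP1* and *NOP16* unchanged, each having 1 probe. *MYBBP1A* and *NAT10* lost their calls in the OXA response of HTOXAR3 as given above, and *POLR1C* in each comparison with the mean of its probes. *NOP56* fell by 0.50 and 0.39 after OXA and by 0.61 and 0.37 after the combination in HT29 and HTOXAR3. Another probe of *NOP56* followed it (-0.56, -0.58, -0.72 and -0.56), and the remaining one did not, at -0.11, 0.01, -0.29 and -0.03. There were 14 members called lower in none of the 4, 33.3% beside 73.8% of the names well above background, among them *POLR1A*, *POLR1B*, *RRN3*, *TCOF1* and *NOP2*.

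Adding Curcumin to OXA lowered some members in HT29. Against OXA alone 8 members fell (19%) and 1 rose (2.38%), beside 2.38% lower and 3.14% higher over all names, and the median was -0.177 against -0.021 (-0.212 and -0.165 within slides 2 and 3). Among the names well above background on every array 4.9% fell. The falls were of *POLR1E*, *TCOF1*, *NCL*, *DDX21*, *FBL*, *NHP2*, *NOP14* and *RRP1B*. The call of *NCL* was lost under 8 of 13 alternatives, each left-out array among them, that of *DDX21* under 4 and that of *NHP2* under 1. After OXA alone against untreated cells these genes measured from -0.34 (*DDX21*) to 0.21 (*TCOF1*), but both comparisons use the arrays of OXA alone, with opposite sign, so no overlap is read from them. *TCOF1*, or treacle, which links UBF and the polymerase in the nucleolus, measured 13.58, 13.41 and 13.28 after OXA and 12.96, 12.75 and 13.00 after the combination (-0.52, SE 0.08, adjusted p = 0.00557). *NOP14*, a small subunit factor, measured 13.59, 13.56 and 13.52 against 13.07, 13.11 and 13.12 (-0.46, SE 0.06, adjusted p = 0.000954). *BOP1* went the other way, from 10.09, 10.11 and 9.98 to 10.90, 10.81 and 11.05 (0.86, SE 0.07, adjusted p = 5.27e-05), and stayed below its untreated level. No array of one treatment overlapped the other in these 3 genes.

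In HTOXAR3 the same comparison called 4 members lower (9.52%) and 2 higher (4.76%), beside 4.41% and 4.43% over all names and 8.8% and 8.46% over those well above background, so the share was near the background. The medians were -0.037 and -0.021, and within slides 2 and 3 the members' was -0.046 and -0.034. With 1 array left out at a time, the members' median ran from -0.06 to -0.026. *MYBBP1A* went from 12.17, 12.27 and 12.33 to 11.74, 11.86 and 11.71 (-0.49, SE 0.08, adjusted p = 0.0056). *FBL* fell by 0.35 and *NOP14* by 0.33, as both had in HT29. *BOP1* went from 12.47, 12.51 and 12.54 to 12.14, 12.20 and 12.09 (-0.37, SE 0.07, adjusted p = 0.0302). *TAF1D* rose from 11.26, 11.48 and 11.62 to 11.97, 11.86 and 11.91 (0.46, SE 0.10, adjusted p = 0.0472), and *NOL6* from 10.63, 10.81 and 10.66 to 11.09, 11.07 and 11.07 (0.38, SE 0.07, adjusted p = 0.0113). Groups did not overlap in these genes, but several calls were close to the threshold. With the replicate number as a block *BOP1* (adjusted p = 0.0547) and *TAF1D* (adjusted p = 0.0951) were no longer called. Over the 13 alternatives *BOP1* and *TAF1D* each lost the call under 8, *NOL6* under 5 and *NOP14* under 2, the mean of the probes being among them for the last 2 and for *TAF1D*. The count of 6 was 2 without replicate 3 of the combination and 3 without its replicate 1 or without replicate 1 of OXA. For *BOP1* the effects of Curcumin in the lines were opposite, and their difference was -1.23 (SE 0.10, adjusted p = 0.00148). It was the only member called for this difference, 2.38% beside 0.135% of all names, well above background or not. A share resting on 1 member is not read as an excess.

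Beyond the members, 106 other ribosome biogenesis genes on the array gave smaller shares of falls than the members did. After OXA 27 fell and 8 rose in HT29 and 10 fell and 8 rose in HTOXAR3, and after the combination 42 fell and 6 rose in HT29 and 15 fell and 13 rose in HTOXAR3. The shares that fell in HT29, 25.5% and 39.6%, stood beside 15.1% and 18% of the names well above background on every array, whereas those in HTOXAR3, 9.43% and 14.2%, were no higher than the 9.82% and 16.9% of such names. Their medians were -0.137 and -0.021 after OXA and -0.212 and -0.052 after the combination. In HT29 after OXA, *RRS1*, which acts in assembly of the 5S ribonucleoprotein (-1.02, adjusted p = 0.00579), and *RRP7A*, a small subunit factor (-0.83, adjusted p = 2.26e-05), fell most, and *BMS1*, a GTPase of the small subunit processome (0.49, adjusted p = 0.000529), and *NVL*, an ATPase of large subunit maturation (0.44, adjusted p = 0.000173), rose most. In HTOXAR3 *UTP3* (-0.82, adjusted p = 6.34e-05) and *NOP9* (-0.74, adjusted p = 0.00179) fell most, and *BMS1* (0.55, adjusted p = 0.000355) and *UTP4* (0.47, adjusted p = 0.000674) rose most.

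Among the genes of the nucleolar stress and MYC axis described here, 3 passed the test in any of the 7 comparisons of groups. *MYC* measured 14.41, 14.36 and 14.51 in untreated HT29, 14.06, 14.08 and 14.14 after OXA and 13.85, 13.76 and 13.90 after the combination, and its fall was called for the combination (-0.59, SE 0.08, adjusted p = 0.000501) and not for OXA (-0.34). In HTOXAR3 it measured 14.46, 14.64 and 14.77 untreated, 14.29, 14.38 and 14.31 after OXA and 14.60, 14.43 and 14.60 after the combination, and neither difference (-0.30 and -0.08) was called. Tested directly, its response to the combination differed between the lines by 0.51 (SE 0.11, adjusted p = 0.263), which was not called. With Benjamini-Hochberg adjustment *MYC* was called lower after OXA in both lines (adjusted p = 0.00552 and 0.0159), and so was this line difference (adjusted p = 0.0238). *MXD1*, a MYC antagonist that binds MAX, was lower in untreated HTOXAR3 (-0.60, adjusted p = 0.00129) and rose there after the combination (0.41, adjusted p = 0.0236), with 0.33 after OXA called by Benjamini-Hochberg alone. *CDKN2A*, which encodes ARF among other products, was lower in untreated HTOXAR3 (-0.33, adjusted p = 0.0203). It fell there when Curcumin was added to OXA (-0.37, adjusted p = 0.0116), the same comparison in HT29 (-0.29) being called by Benjamini-Hochberg alone. These values are for the gene name, and whether the probe is specific to ARF was not looked up. None of the 3 ribosomal proteins that bind MDM2 was called in any of the 7. *RPL5* differed by -0.23 in HT29 and -0.24 in HTOXAR3 after the combination, with adjusted p of 0.0262 and 0.0257 but a fold of 1.18 in both. *RPL11* (-0.19 and -0.15) and *RPL23* (-0.15 and -0.15) had an unadjusted p below 0.05 in the same comparisons. *MDM2* differed by -0.19 and 0.04 after OXA, and neither it nor *MNT* was called in any of the 7, although with Benjamini-Hochberg adjustment *MNT* was called lower in untreated HTOXAR3 (-0.33).

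The promoters of the members had letters in common that the choice of genes did not use. Windows of 300 bases, from 250 before to 50 after each gene's start, were taken from RefSeq (GRCh38.p14) and held 35 of the 42 members, the other 7 being *POLR1E*, *TCOF1*, *NOLC1*, *NOP58*, *RRP12*, *BOP1* and *RRP1B*. The E-box CACGTG, the sequence that MYC with MAX binds and a palindrome, occurred in 12 of 35 members (34.3%), in 29.5% of 95 windows of the other ribosome biogenesis genes and in 7.43% of all 27305 windows. The letters CCGGAAG, the core of many ETS factor sites, occurred on either strand in 40.0%, 42.1% and 10.7%, and the GC box GGGCGG in 68.6%, 66.3% and 44.6%. CACGTG was in 2 of 6 windows of members called lower in all 4 treatment comparisons and in 5 of 11 of those called lower in none, CCGGAAG in 2 of 6 and 7 of 11, and GGGCGG in 5 of 6 and 5 of 11. Matches are descriptions of sequence and no test was made. The windows of all genes include genes not well above background here, and no share was taken over measured genes alone. The 6 windows of members called lower in all 4 treatment comparisons are printed 5′ to 3′ on the gene's strand, with CACGTG in capitals. These genes share the direction of their calls and not the size of their falls. *UBTF*, with the largest fall after *BOP1*, has 7 GC boxes, overlapping matches counted, and no E-box.
POLR1C (chr6:43516839-43517138, plus strand): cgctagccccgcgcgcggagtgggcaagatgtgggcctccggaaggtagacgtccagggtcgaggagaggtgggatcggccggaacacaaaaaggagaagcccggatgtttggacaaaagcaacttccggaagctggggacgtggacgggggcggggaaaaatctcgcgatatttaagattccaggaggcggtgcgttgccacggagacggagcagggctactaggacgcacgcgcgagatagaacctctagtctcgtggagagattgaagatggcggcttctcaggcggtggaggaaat
UBTF (chr17:44220833-44221132, minus strand): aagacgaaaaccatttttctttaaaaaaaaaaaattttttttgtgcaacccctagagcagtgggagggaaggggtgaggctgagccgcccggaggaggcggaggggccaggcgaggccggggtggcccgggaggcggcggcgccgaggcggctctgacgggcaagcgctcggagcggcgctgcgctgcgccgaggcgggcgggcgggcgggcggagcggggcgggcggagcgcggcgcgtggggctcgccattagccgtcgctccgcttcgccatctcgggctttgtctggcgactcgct
MYBBP1A (chr17:4555335-4555634, minus strand): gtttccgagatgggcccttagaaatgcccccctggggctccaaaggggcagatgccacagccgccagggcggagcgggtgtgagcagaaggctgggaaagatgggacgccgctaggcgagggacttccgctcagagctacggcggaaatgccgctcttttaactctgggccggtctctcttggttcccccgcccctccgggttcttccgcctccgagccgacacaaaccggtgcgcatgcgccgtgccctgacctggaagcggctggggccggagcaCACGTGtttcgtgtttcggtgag
NOP56 (chr20:2652382-2652681, plus strand): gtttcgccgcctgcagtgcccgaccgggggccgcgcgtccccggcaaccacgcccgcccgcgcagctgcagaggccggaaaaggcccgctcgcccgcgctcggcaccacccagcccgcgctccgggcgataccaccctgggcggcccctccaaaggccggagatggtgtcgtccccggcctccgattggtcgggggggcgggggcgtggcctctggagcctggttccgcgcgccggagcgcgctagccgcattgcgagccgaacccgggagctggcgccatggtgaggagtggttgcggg
NAT10 (chr11:34105379-34105678, plus strand): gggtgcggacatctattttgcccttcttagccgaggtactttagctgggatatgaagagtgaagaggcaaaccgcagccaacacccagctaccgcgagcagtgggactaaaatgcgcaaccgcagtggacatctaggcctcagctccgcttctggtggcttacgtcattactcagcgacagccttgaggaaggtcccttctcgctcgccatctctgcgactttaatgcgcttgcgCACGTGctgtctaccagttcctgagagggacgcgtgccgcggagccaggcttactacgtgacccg
NOP16 (chr5:176388549-176388848, minus strand): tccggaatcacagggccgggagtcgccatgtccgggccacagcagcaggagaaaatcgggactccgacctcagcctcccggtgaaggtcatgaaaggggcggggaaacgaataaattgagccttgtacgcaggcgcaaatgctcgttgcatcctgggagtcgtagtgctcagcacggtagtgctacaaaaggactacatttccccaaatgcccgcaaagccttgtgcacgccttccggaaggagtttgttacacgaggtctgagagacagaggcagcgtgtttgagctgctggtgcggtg
The E-box starts 27 bases after the gene's start in *MYBBP1A* and 15 before it in *NAT10*, and the other 4 windows hold none.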

How the data were processed

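Total RNA of 18 cultures was labelled with Cy3 and hybridised to one-colour Agilent arrays, and images were read with Feature Extraction 10.7.3.1. The deposited files are scanner output, in which the authors give each spot's mean intensity, local background intensity and a processed intensity, without normalization between arrays. The authors' value table has no row names and was not used. Following the study's methods, intensities were corrected with normexp (offset 0, since none is given in the sources used here), quantile normalized and put on the log2 scale. Control spots were dropped, outlier spots set to missing, replicate spots averaged, and the brightest of the probes of a name kept, giving 36204 names from 50599 probes. A model with 6 group terms was fitted to all arrays with limma 3.58.1 (R 4.3.3), with Benjamini-Yekutieli adjustment over all names. Counts and plots were made in Python with pandas 2.3.3 and matplotlib 3.10.9. The code was tested on simulated data.

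The members, the other gene lists and the tests were chosen with earlier results of these data known. All 42 members could be named, and 1 gene of the stress list is not reported here. Every array's value was given for, in each comparison of 2 groups, the 2 largest rises and 2 largest falls among called members well above background on every array compared, for members whose line difference was called, and for the stress and MYC list by result. Replicates are biological replicates per the labels, with nothing on pairing. Same-numbered arrays deviated together (every pair above 0.1) for OXA in HT29 (0.12, 0.132 and 0.244) and for adding Curcumin in HTOXAR3 (0.197, 0.109 and 0.184), where they shared a slide, and not otherwise. Alternatives were a normexp offset of 50, the processed intensity minus its 75th percentile, the mean of a gene's probes, the slide or the replicate number as a block, dim probes left out, Benjamini-Hochberg adjustment, each array left out in turn and values within slides. The number of arrays limits the precision.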

Additional observations from a re-analysis of the deposited data

Results flagged for a closer look

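The 3 line differences of *BOP1* were picked out because the test of the difference between HT29 and HTOXAR3 called them. The response to OXA differed by 2.64 log2 units (SE 0.10, adjusted p = 8.25e-08), that to OXA plus Curcumin by 1.41 (SE 0.10, adjusted p = 0.000104) and the effect of adding Curcumin by -1.23 (SE 0.10, adjusted p = 0.00148), all as HTOXAR3 minus HT29. They share arrays, so they are not independent of each other. Each rests on 1 probe. All 3 were called under each of 19 alternatives. Among these, the mean of the probes left the values of *BOP1* unchanged, and Benjamini-Hochberg adjustment could not end a call. Within slide 2 and slide 3, which hold both lines, the combination difference was 1.52 and 1.23 and the Curcumin difference -1.07 and -1.45. The part of the different OXA doses cannot be told apart from that of the lines.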

How the results depend on the processing

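The direction of every called member held under every alternative that was fitted, and within slides. The count of members called for the line difference in the combination response was 4 with a normexp offset of 50, 5 with the processed intensity, 4 with dim probes left out and 6 with Benjamini-Hochberg adjustment, against 1. That adjustment gave 14 for adding Curcumin in HT29 (against 9), 10 in HTOXAR3 (against 6) and 2 for the line difference in the OXA response (against 1). The last is 4.76% of the members, beside 5.73% of the names well above background on every array. For adding Curcumin the share of other names at this adjustment was not taken, so nothing about the members is read from those counts. With the mean of all probes, adding Curcumin in HTOXAR3 gave 3, and the basal median reversed to -0.014 from 0.031. The cause of these shifts was not tested. Leaving out 1 array at a time gave 5 to 7 calls for the untreated lines, the low end without replicate 2 of untreated HTOXAR3, 12 to 15 and 8 to 9 for OXA in HT29 and HTOXAR3, 22 to 25 and 13 to 14 for the combination, 7 to 8 and 2 to 4 for adding Curcumin, and 1, 1 to 2 (2 without replicate 1 of the combination in HT29) and 1 for the line differences. With the replicate block, 15 members were called for OXA in HT29 (against 16) and 4 for adding Curcumin in HTOXAR3 (against 6), *TAF1C*, *TAF1D* and *BOP1* losing their calls. In the comparisons where replicate numbers shared no pairing, the block ended the calls of *MYBBP1A* (OXA in HTOXAR3) and *HEATR1* (combination in HT29). The processed intensity moved the median of all names to -0.101 and -0.192 for OXA and to -0.154 and -0.184 for the combination in HT29 and HTOXAR3. The members' medians were then -0.293 and -0.086, and -0.478 and -0.142, so in HTOXAR3 they were no longer below that of all names.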
